A study of Mus musculus with 23 samples.

Results

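The genes described here make cholesterol and fatty acids or control that synthesis. They were taken from a list of 34 genes, of which 33 were measured among the 19938 genes of the arrays, and Acat2 is not analysed here. The 33 comprised 6 enzymes of the mevalonate pathway, 10 enzymes that turn its products into cholesterol, 6 regulators, 3 enzymes that supply acetyl-CoA or NADPH, 2 enzymes of palmitate synthesis, and 6 elongases and desaturases.

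The cells were sorted from tumours of Py2T, a mouse breast cancer cell line, which grew in a mammary fat pad of female FVB/N mice. Mice were given 50 mg per kg of nintedanib, which inhibits the kinases of PDGF, FGF and VEGF receptors, or stayed untreated. Endothelial cells of the tumour vessels gave 3 arrays from untreated tumours, 3 after 7 days and 5 after 21 days of nintedanib. Tumour cells gave 3, 4 and 5 arrays in the same order. The untreated tumours were of the size reached by the 21-day tumours, so the 7-day tumours had no untreated group of their own size. The tumours are allografts of 1 cell line, and neither the age of the mice nor the gates of the sort were stated in the labels. Samples of a group are labelled as biological replicates without a statement that each came from its own animal, so p-values measure the spread between these samples.

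Cells build cholesterol from acetyl-CoA by way of mevalonate, squalene and lanosterol, and they build fatty acids from acetyl-CoA by way of malonyl-CoA. When sterols in the endoplasmic reticulum run low, Scap carries the precursors of the transcription factors SREBP-1 and SREBP-2 to the Golgi, where they are cut and released to the nucleus, and they then raise many genes of both routes. Insig proteins hold the complex back when sterols are plentiful. Tumour cells often make their own lipids for new membranes, while endothelial cells can also take up fatty acids from blood.

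SREBPs act on promoters together with the factors NF-Y and Sp1, and the promoters of the genes on which the results below turn are shown here for that reason. RefSeq windows (GRCm38.p6) of 300 bases, 250 before and 50 after the transcription start, were given for 26 of the 33 genes. Exact matches were counted on both strands. The NF-Y box CCAAT occurred in 22 of 26 (84.6%), against 41.1% of 27025 genes with a window. The Sp1 box GGGCGG occurred in 21 of 26 (80.8%), against 38.2% of genes. The E-box CACGTG occurred in 6 of 26 (23.1%), against 8.09% of genes. A sterol regulatory element spelled TCACNCCAC occurred in 1 of 26 (3.85%), Hmgcs1, against 1.44% of genes. None of these spellings can contain another, and a match is a description of letters in the window. The following stretches run 5′ to 3′ along the gene, end before its start site and have the motif, or its reverse complement, in capitals.
Hmgcs1, sterol regulatory element, chr13:119690189-119690247, plus strand: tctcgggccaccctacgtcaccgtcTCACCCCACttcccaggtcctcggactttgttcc
Cyp51, NF-Y box, chr5:4104698-4104751, minus strand: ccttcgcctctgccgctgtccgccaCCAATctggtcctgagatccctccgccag
Dhcr7, NF-Y box, chr7:143830104-143830158, plus strand: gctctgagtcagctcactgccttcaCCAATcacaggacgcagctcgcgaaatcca
Insig2, NF-Y box, chr1:121332590-121332643, minus strand: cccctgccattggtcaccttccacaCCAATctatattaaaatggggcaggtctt
Fasn, NF-Y box, chr11:120824580-120824634, minus strand: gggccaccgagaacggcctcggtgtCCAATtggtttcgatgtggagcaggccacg
Elovl5, NF-Y box, chr9:77917269-77917323, plus strand: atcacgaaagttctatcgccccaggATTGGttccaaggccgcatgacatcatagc
Fads2, Sp1 box, chr19:10101659-10101714, minus strand: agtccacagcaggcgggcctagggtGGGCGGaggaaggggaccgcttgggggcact
The window of Fads2 held no CCAAT. The window of Acaca held none of the 4 motifs, and Fads1, Stard4, Sqle, Scd1, Scd2, Fdft1 and Fdps had no window.

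All values below are log2 RMA signals, so a difference of 1 is a 2-fold difference within a gene, and levels of different genes are not compared. Each array's distribution was equalised by the authors' processing, so a change in the total RNA of a cell cannot be seen. Arrays of a group correlated over all genes at 0.983 or above in tumour cells and at 0.935 or above in endothelial cells. The 12 endothelial markers averaged 9.87 to 10.49 in the endothelial arrays, against 3.91 to 4.23 in the tumour cell arrays. The 9 epithelial markers averaged 5.14 to 7.48 in the endothelial arrays and 5.99 to 6.59 in the tumour cell arrays, and the highest value belonged to replicate 4 of the 21-day endothelial group. The 15 macrophage markers averaged 4.63 to 7.87 in endothelial arrays and 4.23 to 5.20 in tumour cell arrays, with replicate 1 of the untreated and replicates 3 and 4 of the 21-day endothelial group at 7.07 to 7.87. Fewer cells of a type and less RNA per cell cannot be told apart in such sorted samples.

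The question of the treatment comparisons is whether sterol and fatty acid synthesis genes changed in either cell type under nintedanib. In tumour cells after 7 days, 0 of the 33 genes passed limma's test at an adjusted p under 0.05, where 0.507% of all genes did, and 7 had an unadjusted p under 0.05, where 11% of all genes did. Of the 33, 25 had a positive difference, where 46.8% of all genes had one, and their median difference was 0.16, against -0.01 for all genes. That median was 0.25 without untreated replicate 1 and 0.11 without untreated replicate 3. By role, 4 of 6 mevalonate enzymes, 8 of 10 sterol enzymes, 4 of 6 regulators, 3 of 3 precursor enzymes, 2 of 2 palmitate enzymes and 4 of 6 elongases and desaturases were positive. The 7-day and 21-day groups of tumour cells did not overlap the untreated group in 5 and 2 genes, where 10.2% and 6.03% of all genes did not overlap. They did not overlap each other in 1 gene, where 5.34% of all genes did not.

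Cyp51, the lanosterol demethylase, had the smallest p of the 33 genes after 7 days. Its signal was 6.52, 6.43, 6.78 and 6.51 in tumour cells treated for 7 days, against 6.12, 6.09 and 6.0 in untreated tumour cells. All 4 treated arrays lay above all 3 untreated arrays. The difference was 0.49 ± 0.12 (SE), with an adjusted p of 0.125 in limma. After 21 days the values were 6.15, 6.54, 6.11, 6.23 and 5.96, which overlap the untreated arrays. The 21-day group differed from the 7-day group by -0.36 ± 0.11 (limma, adjusted p = 0.163).

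Insig2, a retention protein of the SREBP complex, had the largest differences in tumour cells at both times. Its signal was 7.48, 7.66, 7.39 and 7.52 after 7 days, against 7.06, 6.34 and 7.23 in untreated tumour cells. The 7-day difference was 0.64 ± 0.22 (limma, adjusted p = 0.278). After 21 days the signal was 7.34, 8.11, 7.51, 7.40 and 7.96, and the difference from untreated cells was 0.79 ± 0.21 (limma, adjusted p = 0.228). Neither treated group overlapped the untreated one. Without untreated replicate 2, which had 6.34, the differences were 0.37 and 0.52 (limma, adjusted p = 0.594 and 0.499). In endothelial cells Insig2 was 6.03 ± 0.19 untreated, 6.41 ± 0.26 after 7 days and 6.42 ± 0.48 after 21 days (SD, n = 3, 3 and 5).

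Elovl5, an elongase of polyunsaturated fatty acids, had the smallest p after 21 days. Its signal was 9.58, 9.65, 9.45, 9.59 and 9.85 in tumour cells treated for 21 days, against 9.28, 9.17 and 9.10 in untreated tumour cells, and the groups did not overlap. The difference was 0.44 ± 0.09 (limma, adjusted p = 0.123). After 7 days it was 9.39, 9.34, 9.30 and 9.53, also above every untreated array. In endothelial cells the values ran the other way, with 10.14, 9.20, 9.76, 9.21 and 9.20 after 21 days, against 10.10, 9.38 and 10.46 untreated. The 21-day effect in endothelial cells minus that in tumour cells was -0.92 ± 0.32 (limma, adjusted p = 0.719), so the difference between the cell types did not pass the test.

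In tumour cells after 21 days, 0 of 33 genes passed limma's test, where 0.0903% of all genes did, and 4 had an unadjusted p under 0.05, where 10.1% of all genes did. In the 21-day group set against the 7-day group, 0 of 33 passed, where 1.22% of all genes did, and 3 had an unadjusted p under 0.05, where 11.9% of all genes did. Positive differences stood in 22 genes after 21 days, where 46.8% of all genes had one, and in 14 for 21 against 7 days, where 49.2% had one. The median differences were 0.09 after 21 days against untreated, and -0.03 for 21 against 7 days, with medians over all genes of -0.0111 and -0.0024. The 21-day median was 0.0346 without untreated replicate 3. Acaca, acetyl-CoA carboxylase, differed by 0.28 ± 0.10 after 7 days and 0.29 ± 0.10 after 21 days (limma, adjusted p = 0.314 and 0.363). The transcript cluster used for Acaca is of doubtful identity, as given below, and the other Acaca cluster differed by 0.0094 after 7 days and -0.0424 after 21 days (limma, adjusted p = 0.994 and 0.960). Stard4, a cytosolic sterol carrier, differed by -0.45 ± 0.18 and -0.42 ± 0.17 (limma, adjusted p = 0.355 and 0.424). Mvd, the last enzyme before isopentenyl diphosphate, differed by 0.24 ± 0.09 after 7 days (limma, adjusted p = 0.332). Pmvk, phosphomevalonate kinase, differed by 0.26 ± 0.15 after 21 days (limma, adjusted p = 0.593). Sqle, squalene epoxidase and one of the slow steps of the pathway, was 7.67 ± 0.13 after 7 days and 7.19 ± 0.24 after 21 days (SD, n = 4 and 5). That difference of 21 against 7 days was -0.48 ± 0.17 (limma, adjusted p = 0.256). For the same contrast Elovl5 differed by 0.23 ± 0.08, Scap by -0.23 ± 0.11 and Hsd17b7, a sterol 3-keto reductase, by -0.45 ± 0.22 (limma, adjusted p = 0.269, 0.466 and 0.468).

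The tumour cell arrays bound these differences fairly tightly. Of the 33 genes, 31 after 7 days, 32 after 21 days and 33 for 21 against 7 days had a 95% confidence interval within a 2-fold change in either direction, and 0 had an estimate of 2-fold or more. The 17 measured genes of an immediate-early and heat shock list, which can respond to cell isolation, averaged 8.85 ± 0.23 in untreated tumour cells, 9.68 ± 0.17 after 7 days and 9.25 ± 0.24 after 21 days (SD, n = 3, 4 and 5). The 11 measured proliferation genes averaged 6.77 ± 0.12, 6.35 ± 0.17 and 7.14 ± 0.45 in the same order. Their part in the differences above was not tested.

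**Figure D1:**
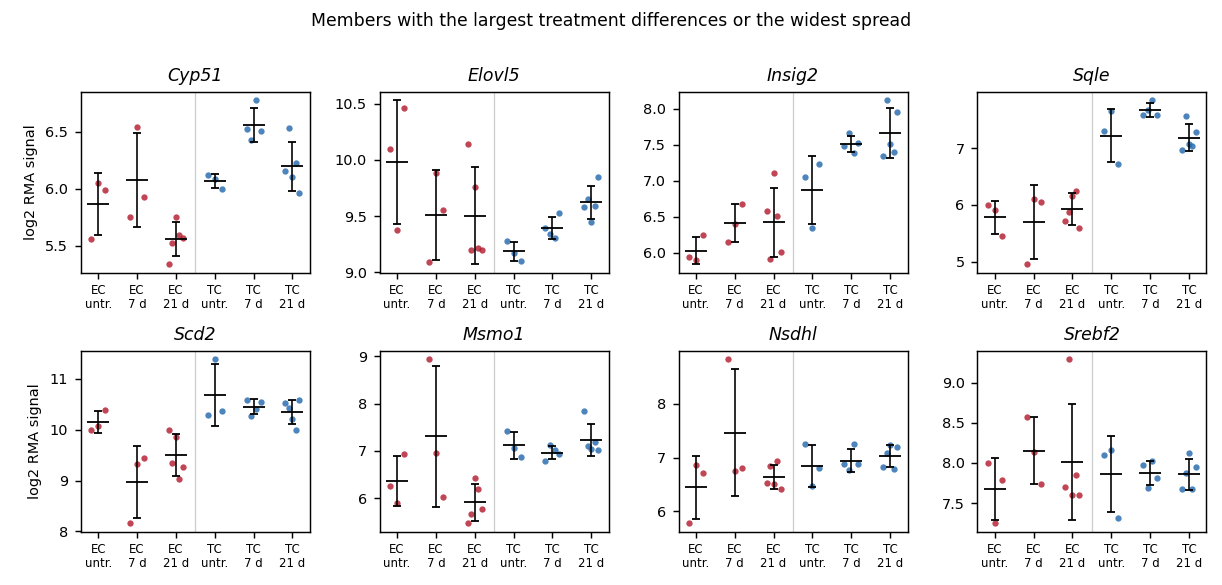
Log2 RMA signal (vertical axes) of 8 sterol and fatty acid genes in endothelial cells (EC, red) and tumour cells (TC, blue), untreated (untr.) and after 7 and 21 days of nintedanib. Points are arrays, and bars are the group mean and SD. In tumour cells Cyp51 is high after 7 days and Elovl5 lies above the untreated arrays at both times, while Msmo1 and Nsdhl each have 1 endothelial array near 8.9 after 7 days.

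In endothelial cells 0 of 33 genes passed limma's test after 7 days, after 21 days, or for 21 against 7 days, and 0% of all genes passed in each of these. At an unadjusted p under 0.05 the counts were 2, 0 and 4 of 33, where 8.17%, 4.18% and 9.4% of all genes stood. The groups did not overlap in 2, 3 and 0 of the 33 genes, where 13.8%, 3.51% and 5.9% of all genes did not overlap. Positive differences stood in 17, 20 and 18 of the 33, where 60.3%, 53.2% and 42.2% of all genes had one. Median differences were 0.03, 0.08 and 0.01, against 0.06, 0.01 and -0.04 for all genes.

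Scd2, a stearoyl-CoA desaturase that places a double bond in saturated fatty acids, had the largest difference after 7 days. Its signal was 8.16, 9.32 and 9.43 in endothelial cells treated for 7 days, against 9.99, 10.07 and 10.39 in untreated endothelial cells, with no overlap. The difference was -1.18 ± 0.35 (limma, adjusted p = 0.549), and -0.77 without replicate 1 of the 7-day group. After 21 days the signal was 9.98, 9.35, 9.86, 9.03 and 9.27, also below every untreated array, and the difference was -0.65 ± 0.31 (limma, adjusted p = 1.00). Tumour cells had 10.45 ± 0.15 after 7 days, against 10.68 ± 0.61 untreated (SD, n = 4 and 3). The 7-day effect in endothelial cells minus that in tumour cells was -0.95 ± 0.43 (limma, adjusted p = 0.426).

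Acss2, which makes acetyl-CoA from acetate, had 3.89, 4.08 and 4.03 in endothelial cells after 7 days, against 3.73, 3.63 and 3.66 in untreated cells. These groups did not overlap either, and the difference was 0.33 ± 0.10 (limma, adjusted p = 0.549). The signal of Acss2 was dim, with a mean of 3.87 over all 23 arrays, at the 30.6th percentile of all genes. Nsdhl, a sterol dehydrogenase that acts in removing the methyl groups at carbon 4, had 8.83, 6.76 and 6.81 after 7 days, against 5.78, 6.87 and 6.71 untreated. Its difference of 1.01 ± 0.50 (limma, adjusted p = 0.635) came with 1 high array, replicate 1, and was 0.33 without it. Msmo1, the methylsterol oxidase of the same steps, had 8.93 in that array, against 6.96 and 6.02 in the other 7-day arrays. The 21-day arrays of Msmo1 had 5.47, 5.67, 6.43, 6.20 and 5.78, and 21 against 7 days gave -1.40 ± 0.55 (limma, adjusted p = 0.491), or -0.58 without replicate 1 of the 7-day group. That replicate held the highest or lowest of all 23 arrays in 11 of the 33 genes, more than any other array, and the next had 6. Its share over all genes was not computed, so the count may not be particular to these genes. The 7-day endothelial group also had the lowest correlation between arrays over all genes, 0.935.

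The remaining endothelial differences with the smallest p were of similar or smaller size. After 7 days Stard4 differed by -0.68 ± 0.37 and Hmgcs1, which condenses acetyl-CoA units into HMG-CoA, by 0.45 ± 0.28 (limma, adjusted p = 0.689 and 0.719). Without replicate 2 of the 7-day group Hmgcs1 differed by 0.0414 and Stard4 by -1.14. After 21 days Fdft1, the squalene synthase, differed by -0.59 ± 0.29, Elovl6, which lengthens palmitate, by -0.47 ± 0.28, Acly, which makes acetyl-CoA from citrate, by 0.40 ± 0.24, and Srebf1, the gene of SREBP-1, by 0.24 ± 0.13 (limma, adjusted p = 1.00 for each). For 21 against 7 days Stard4 differed by 0.87 ± 0.33, Ebp, a sterol isomerase, by 0.95 ± 0.41, Cyp51 by -0.52 ± 0.19 and Acss2 by -0.19 ± 0.09 (limma, adjusted p = 0.486, 0.522, 0.468 and 0.537).

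The endothelial arrays bound far less than the tumour cell arrays. The 95% interval lay within a 2-fold change for 16 of 33 genes after 7 days, 19 after 21 days and 18 for 21 against 7 days. The median residual SD of the 33 genes was 0.431 in endothelial cells and 0.255 in tumour cells, against 0.255 and 0.156 over all genes. The immediate-early and heat shock list averaged 8.34 ± 0.22 in untreated endothelial cells, 9.14 ± 0.12 after 7 days and 9.10 ± 0.22 after 21 days (SD, n = 3, 3 and 5). The 11 measured proliferation genes averaged 6.34 ± 0.28, 5.24 ± 0.13 and 5.77 ± 0.33 in the same order. The part of both lists in these differences was not tested. Macrophage markers averaged 6.42 ± 1.26 in untreated endothelial cells, 4.94 ± 0.27 after 7 days and 6.35 ± 1.15 after 21 days. Without the 3 endothelial arrays highest in those markers, an alternative chosen after seeing the data, 0 of 33 genes passed in each endothelial comparison as well.

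**Figure D2:**
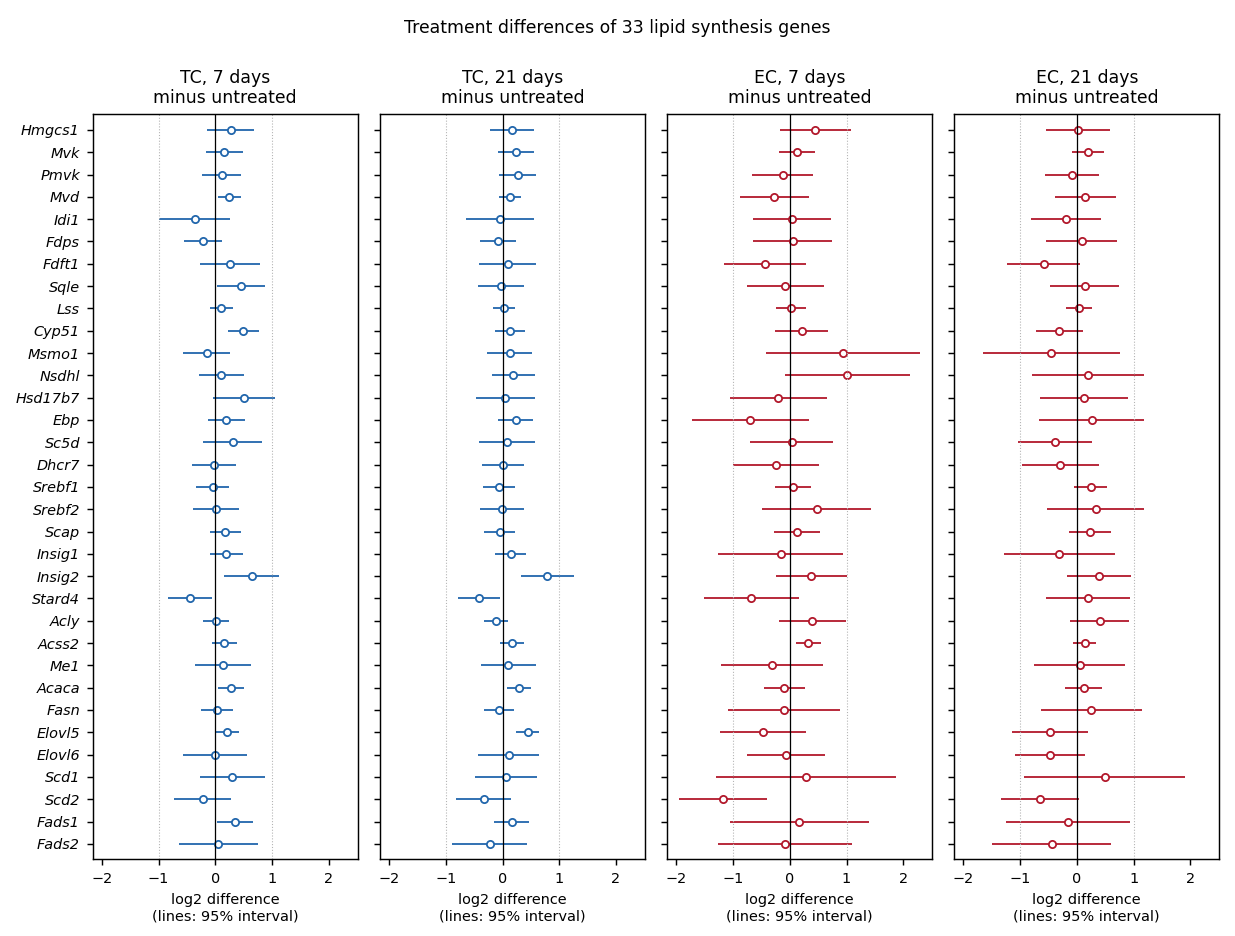
Log2 difference of treated minus untreated cells (axis in log2 units) for each of the 33 genes after 7 and 21 days, in endothelial and in tumour cells, with lines for 95% confidence intervals of limma's fits and dotted lines at a 2-fold change. The endothelial intervals are wider, and no gene passed the adjusted test in any of these comparisons.

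The test of whether a treatment effect differed between the cell types gave 0 of 33 genes at both times, where 0.0953% of all genes passed after 7 days and 0% after 21 days. At an unadjusted p under 0.05 stood 1 of 33 each time, where 11% and 5.33% of all genes stood. For the 7-day effect, Acaca gave -0.38 ± 0.19, Elovl5 -0.68 ± 0.35, Mvd -0.51 ± 0.28 and Ebp -0.89 ± 0.49 as endothelial minus tumour cells (limma, adjusted p = 0.475, 0.484, 0.513 and 0.515). For the 21-day effect, Acly gave 0.52 ± 0.26 and Cyp51 -0.44 ± 0.22 (limma, adjusted p = 0.930 for each). Fdft1 gave -0.68 ± 0.39 and Srebf1 0.31 ± 0.18 for the same effect (limma, adjusted p = 0.953 for each).

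Between the cell types 10 of the 33 synthesis genes passed in all 3 comparisons, where 13% of all genes did. Some were higher and some lower in endothelial cells. Endothelial cells had much more signal of Fads1, the delta-5 desaturase, and more of Fads2, the delta-6 desaturase, and of Stard4. Tumour cells had more of Acaca and Fasn, which make palmitate, of Me1, which supplies NADPH, of Scd1, which desaturates palmitate and stearate, and of Sqle, Dhcr7 and Insig2. These 10 genes differed in the same direction in untreated tumours and after 7 and 21 days of nintedanib. The 3 comparisons share no arrays but share limma's estimate of the spread.

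In untreated tumours 11 of the 33 genes passed, 4 higher and 7 lower in endothelial cells, where 18.3% of all genes passed, 8.18% higher and 10.2% lower. After 7 days 16 passed, 4 higher and 12 lower, where 40% passed, 23% higher and 17% lower. After 21 days 16 passed, 5 higher and 11 lower, where 32% passed, 15.7% higher and 16.3% lower. The 3 genes that were higher in all 3 comparisons and the 7 that were lower stood beside 5.92% and 7.08% of all genes, or 13% in either direction. A further 10 genes passed in 1 or 2 of the comparisons, 13 passed in none, and 0 passed in opposite directions. Shares of all genes for these last counts were not computed. The median difference of the 33 genes was -0.20, -0.02 and -0.15 in untreated, 7-day and 21-day tumours, against 0.03, 0.11 and 0.06 for all genes. No test set these counts and medians against those of all genes.

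Fads1 introduces the double bond that yields arachidonic and eicosapentaenoic acid. Its signal was 7.83, 7.29 and 8.02 in untreated endothelial cells, against 4.25, 4.14 and 3.86 in untreated tumour cells. Over all 11 endothelial arrays it ran from 6.33 to 8.97 with a median of 7.87, against 3.86 to 4.70 with a median of 4.25 in the 12 tumour cell arrays, without overlap. The difference was 3.63 ± 0.41 in untreated tumours, a 12.4-fold higher signal, and 3.46 ± 0.39 after 7 days and 3.31 ± 0.32 after 21 days (limma, adjusted p = 1.98e-06, 1.30e-06 and 1.24e-07). The tumour cell arrays were dim for Fads1, all under 4.90, the median of the mean signals of all genes. The size of a fold against so dim a signal is uncertain.

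Fads2 catalyses the step at the head of the same polyunsaturated route. It had 7.69, 6.30 and 7.10 in untreated endothelial cells, against 5.56, 5.80 and 4.29 in untreated tumour cells. Its difference was 1.81 ± 0.46 in untreated tumours, 1.68 ± 0.43 after 7 days and 1.60 ± 0.36 after 21 days (limma, adjusted p = 0.00839, 0.00530 and 0.00199). After 21 days the groups overlapped slightly, because endothelial replicate 5 had 5.5564 and tumour cell replicate 2 had 5.5638. Without tumour cell replicate 3 the untreated difference was 1.35 with an adjusted p of 0.0663. Without the 3 arrays highest in macrophage markers it was 1.48 with an adjusted p of 0.0539.

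The stearoyl-CoA desaturases stood on the other side. Scd1 had 8.62, 6.56 and 8.11 in untreated endothelial cells, against 10.41, 10.59 and 11.13 in untreated tumour cells. All 11 endothelial arrays, 6.56 to 9.44 with a median of 8.37, lay below the 12 tumour cell arrays, 10.16 to 11.45 with a median of 10.79. The difference was -2.94 ± 0.56, -2.96 ± 0.52 and -2.51 ± 0.43 in untreated, 7-day and 21-day tumours (limma, adjusted p = 0.000738, 0.000253 and 0.000175), a 7.70-fold lower signal in untreated endothelial cells. Scd2 did not pass in untreated tumours and differed by -1.48 ± 0.29 after 7 days and -0.85 ± 0.24 after 21 days (limma, adjusted p = 0.000708 and 0.0119). Of the elongases, Elovl6 was lower in endothelial cells after 21 days (-0.99 ± 0.24, limma, adjusted p = 0.00344). Elovl5 was higher in untreated endothelial cells (0.79 ± 0.25, limma, adjusted p = 0.0336), and that call was lost in 5 of the 6 comparisons that left out an array of those groups, with adjusted p of 0.0646 to 0.169.

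**Figure D3:**
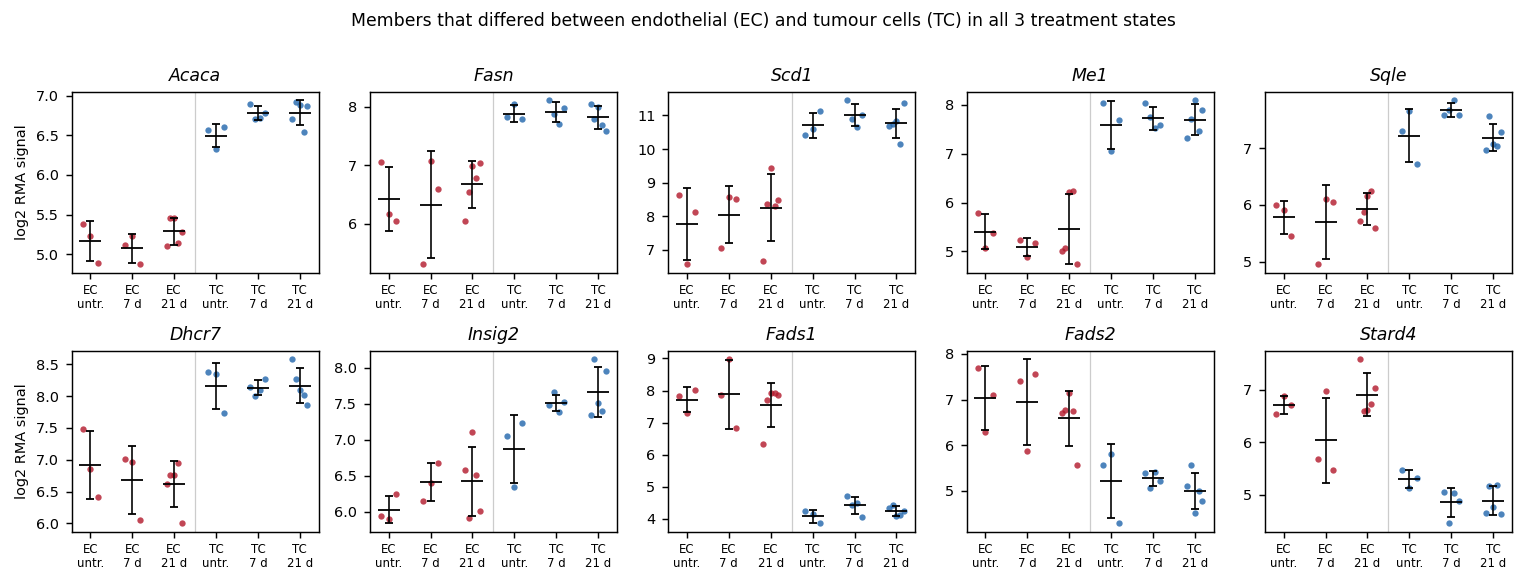
Log2 RMA signal (vertical axes) of sterol and fatty acid genes by array in endothelial cells (EC, red) and tumour cells (TC, blue), untreated (untr.) and after 7 and 21 days of nintedanib, with group means and SD. Fads1 in endothelial cells lies above every tumour cell array, and Scd1, Fasn and Acaca lie below every tumour cell array.

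Acaca makes malonyl-CoA, and Fasn, fatty acid synthase, builds palmitate from it. Acaca had 5.38, 5.24 and 4.89 in untreated endothelial cells, against 6.57, 6.33 and 6.6 in untreated tumour cells. The difference was -1.33 ± 0.14, -1.70 ± 0.13 and -1.50 ± 0.11 in untreated, 7-day and 21-day tumours (limma, adjusted p = 5.65e-07, 4.18e-09 and 1.27e-09), and the 11 and 12 arrays of the cell types did not overlap. This transcript cluster is the brighter of a pair annotated to Acaca, a gene of chromosome 11, but 18 of the 20 clusters nearest to it in number name genes of chromosome 12. The other cluster of Acaca, among clusters of chromosome 11, was also lower in endothelial cells, with means of 3.80, 3.14 and 3.36, against 4.74, 4.75 and 4.69 in tumour cells. Fasn had 7.05, 6.16 and 6.05 in untreated endothelial cells, against 7.82, 8.04 and 7.78 in untreated tumour cells. Its difference was -1.46 ± 0.34, -1.59 ± 0.31 and -1.14 ± 0.26 (limma, adjusted p = 0.00370, 0.000678 and 0.00217), again without overlap of the cell types.

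The enzymes that feed these routes split. Me1, the malic enzyme that yields NADPH in the cytosol, had 5.78, 5.07 and 5.38 in untreated endothelial cells, against 8.03, 7.06 and 7.68 in untreated tumour cells. Its difference was -2.19 ± 0.35, -2.63 ± 0.32 and -2.24 ± 0.27 (limma, adjusted p = 0.000111, 4.40e-06 and 2.24e-06). Acly stood higher in endothelial cells after 7 days (0.56 ± 0.19, limma, adjusted p = 0.0269) and after 21 days (0.68 ± 0.16, limma, adjusted p = 0.00263). In untreated tumours it differed by 0.16, and the call at 7 days was lost without tumour cell replicate 1 or 4 or endothelial replicate 2 or 3, with adjusted p of 0.0528 to 0.134. Acss2, with a dim signal in both cell types, passed in none of the 3 comparisons.

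Of the 6 mevalonate enzymes, 0 passed in untreated tumours and after 7 days, and Mvd alone passed after 21 days. Of all genes, 18.3%, 40% and 32% passed in these comparisons. Mvd was higher in endothelial cells there (0.47 ± 0.16, limma, adjusted p = 0.0299), a call that was lost without any one of tumour cell replicates 2, 3 and 5 or endothelial replicates 2, 4 and 5, with adjusted p of 0.0507 to 0.0862. Hmgcs1, whose promoter holds the sterol element printed above, had 6.62 to 8.09 with a median of 6.84 in endothelial arrays and 6.29 to 7.22 with a median of 6.94 in tumour cell arrays. Mvk, Pmvk, Idi1 and Fdps also overlapped between the cell types. The used cluster of Idi1, a gene of chromosome 13, has 19 of its 20 nearest clusters on chromosome 2, so its identity is less sure.

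Of the 10 enzymes from squalene to cholesterol, 2, 5 and 4 were lower in endothelial cells in untreated, 7-day and 21-day tumours. Of all genes, 10.2%, 17% and 16.3% were lower in the same order. Each time 0 of the 10 were higher, where 8.18%, 23% and 15.7% of all genes were. No test set these counts against those shares. Sqle had 5.99, 5.91 and 5.45 in untreated endothelial cells, against 7.30, 7.65 and 6.72 in untreated tumour cells. Its difference was -1.44 ± 0.27, -1.97 ± 0.25 and -1.27 ± 0.21 (limma, adjusted p = 0.000662, 7.86e-06 and 0.000111). Dhcr7, which makes cholesterol from 7-dehydrocholesterol, had 7.47, 6.86 and 6.42 in untreated endothelial cells, against 8.37, 8.35 and 7.74 in untreated tumour cells. Its difference was -1.24 ± 0.28, -1.45 ± 0.27 and -1.54 ± 0.22 (limma, adjusted p = 0.00379, 0.000349 and 2.11e-05). Over the 11 endothelial and 12 tumour cell arrays neither gene overlapped.

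Of the enzymes between these, 4 passed in 1 or 2 of the comparisons and 4 in none. Cyp51 was lower in endothelial cells after 7 days (-0.49 ± 0.17, limma, adjusted p = 0.0261) and after 21 days (-0.64 ± 0.14, limma, adjusted p = 0.00135). The 7-day call of Cyp51 was lost without tumour cell replicate 3 or endothelial replicate 1 or 3, with adjusted p of 0.0723 to 0.164, and under quantile normalization it was -0.25 (adjusted p = 0.239). Ebp and Hsd17b7 were lower after 7 days by -1.31 ± 0.33 and -1.25 ± 0.33 (limma, adjusted p = 0.00448 and 0.00548). Msmo1 was lower after 21 days (-1.33 ± 0.36, limma, adjusted p = 0.00831). Those that passed in none were Fdft1, Lss, the lanosterol synthase, Nsdhl and Sc5d, a sterol desaturase.

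Among the regulators, Stard4, which moves cholesterol between membranes, was higher in endothelial cells. It had 6.54, 6.89 and 6.71 in untreated endothelial cells, against 5.47, 5.14 and 5.32 in untreated tumour cells. Its difference was 1.41 ± 0.30, 1.18 ± 0.29 and 2.02 ± 0.24 (limma, adjusted p = 0.00232, 0.00337 and 1.80e-06), and the lowest endothelial array, 5.472, lay just above the highest tumour cell array, 5.467. Without endothelial replicate 2 the 7-day difference was 0.71 (limma, adjusted p = 0.0243). Insig2 was lower in endothelial cells. It had 5.94, 5.90 and 6.24 in untreated endothelial cells, against 7.06, 6.34 and 7.23 in untreated tumour cells. Its difference was -0.85 ± 0.27, -1.10 ± 0.26 and -1.24 ± 0.21 (limma, adjusted p = 0.0354, 0.00249 and 0.000155). The untreated call of Insig2 was lost without tumour cell replicate 1 or 3 or endothelial replicate 1 or 2, with adjusted p of 0.0898 to 0.161.

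Insig1, the relative of Insig2, pointed the other way without passing. It had 8.42, 7.92 and 7.84 in untreated endothelial cells, against 7.38, 6.73 and 7.10 in untreated tumour cells, with no overlap, and the difference was 0.99 ± 0.37 (limma, adjusted p = 0.0722). Scap was lower in endothelial cells after 7 days (-0.44 ± 0.15, limma, adjusted p = 0.0282), which was lost without tumour cell replicate 1 or 4 or endothelial replicate 1 or 3, with adjusted p of 0.0612 to 0.117, and under quantile normalization it was -0.26 (adjusted p = 0.233). Srebf1 and Srebf2, the genes of the SREBPs, passed in none of the comparisons. Srebf1 ran from 6.70 to 7.26 in endothelial arrays and from 6.87 to 7.47 in tumour cell arrays. Srebf2 ran from 7.25 to 9.29 and from 7.32 to 8.16 in the same order.

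**Figure D4:**
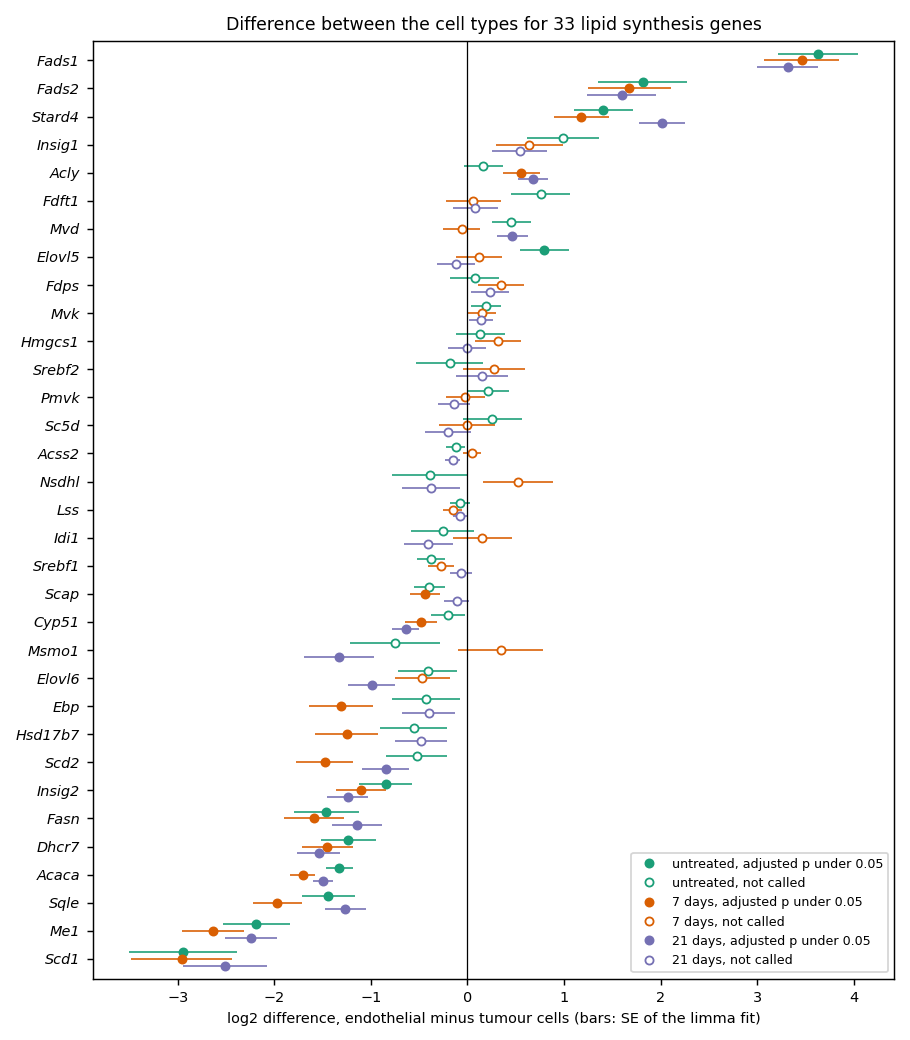
Log2 difference of endothelial minus tumour cells (axis in log2 units) for each of the 33 genes in untreated tumours and after 7 and 21 days of nintedanib, with bars of 1 SE of limma's fit and filled points where the adjusted p was under 0.05. Fads1, Fads2 and Stard4 stand to the positive side in all 3 comparisons, and Scd1, Me1, Sqle, Fasn, Acaca, Dhcr7 and Insig2 to the negative side.

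Over all arrays regardless of treatment, 8 of the 33 genes did not overlap between the 11 endothelial and the 12 tumour cell arrays, where 10.2% of all genes did not. Fads1 and Stard4 were the 2 higher ones, and Sqle, Dhcr7, Me1, Acaca, Fasn and Scd1 the 6 lower ones. Without replicate 4 of the 21-day endothelial group, which had the highest epithelial marker level, the number of genes that passed was 11, 16 and 16 in untreated, 7-day and 21-day tumours. That array enters only the 21-day comparison, so the untreated and 7-day counts could move only through limma's shared spread. Without the 3 arrays highest in macrophage markers the number that passed was 9, 16 and 16. None of those arrays was of the 7-day group, so the same holds for its count. The 8 measured adipocyte markers averaged 4.15 to 4.58 in endothelial arrays and 3.94 to 4.13 in tumour cell arrays, and Adipoq had group means of 3.31 to 3.70. Pericyte markers, 9 in number, averaged 5.81 to 6.51 in endothelial arrays and 4.63 to 4.94 in tumour cell arrays. Fibroblast markers averaged 5.87 to 7.33 and 6.38 to 6.96 in the same order. The part of such cells in the differences was not tested.

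Neighbouring genes of lipid uptake, storage and sterol efflux, a list of 67 of which 55 were measured, are given for comparison. In tumour cells after 7 days 1 of the 55 passed, where 0.507% of all genes did. It was Acsl5, an acyl-CoA synthetase (0.50 ± 0.08, limma, adjusted p = 0.0249). In tumour cells 0 passed after 21 days and for 21 against 7 days, where 0.0903% and 1.22% of all genes did. In each endothelial treatment comparison 0 of the 55 and 0% of all genes passed. After 21 days Acsl5 differed by 0.42 ± 0.08 and Elovl7, an elongase of long saturated fatty acids, by 1.29 ± 0.24 (limma, adjusted p = 0.0745 and 0.0833). Between the cell types 17, 27 and 20 of the 55 passed in untreated, 7-day and 21-day tumours, 9, 13 and 11 of them higher in endothelial cells, where 18.3%, 40% and 32% of all genes passed. In all 3 comparisons 12 of the 55 passed, where 13% of all genes did, and no test set these counts against those of all genes. The fatty acid transporter Cd36 averaged 8.05 in untreated endothelial cells, against 3.02 in untreated tumour cells (difference 5.03 ± 0.48, limma, adjusted p = 1.86e-07). The fatty acid binding protein gene Fabp4 averaged 9.70 and 4.12 (5.58 ± 0.27, limma, adjusted p = 4.38e-12), and the sterol exporter gene Abcg1 9.0 and 4.93 (4.07 ± 0.31, limma, adjusted p = 5.68e-09), in the same order. Abca1, Acacb, Ch25h and Lbr were likewise higher in endothelial cells in all 3 comparisons. Acsl4, Dgat1, Idh1, Lpin2 and Mbtps1, the site-1 protease that cuts SREBPs, were lower in all 3.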

How the data were processed

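Biotin-labelled targets from sorted cells were hybridised to Affymetrix arrays, 1 per sample, 23 in all. The authors deposited log2 signals, 1 per transcript cluster and array, made with RMA and the oligo package, per the submitters' processing notes (versions not given in the sources used here). Precision is limited by the number of arrays. Of 35556 clusters 21789 named 1 gene in the platform annotation, 1621 several, and 12146 were not listed. Symbols were updated by gene identifier for 21698 clusters. The cluster with the highest mean was kept for each of 999 genes with several, leaving 19938 genes without a filter on dim ones.

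Groups were compared with limma 3.58.1 in R 4.3.3, separately in the 12 tumour cell arrays and the 11 endothelial arrays, and over all 23 for contrasts between cell types. Two-sided p-values were adjusted over all genes of a comparison (Benjamini-Hochberg), and a gene passed at an adjusted p under 0.05. Errors of differences are limma's standard errors. Full statistics are given for genes that passed or, where fewer than 5 did, for the 5 smallest p. The members, lists and naming rule were chosen with earlier results of these data known. The fits were tested on simulated data. Samples of the same replicate number showed no clear shared deviation from their group means (correlations from -0.15 to 0.11). With so few arrays per group, this cannot exclude that they came from the same tumour. Alternatives changed the normalization, filter, cluster choice, array weights, blocks and covariates, and left out each array in turn.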

Additional observations from a re-analysis of the deposited data

Results flagged for a closer look

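Of 99 pairs of a gene and a group of 4 or 5 arrays, 6 (6.1%) had 1 array set apart from the rest by Dixon's test, and chance alone sets apart about 1 in 20. In endothelial cells after 21 days, Pmvk had 6.2802 in replicate 4, against 5.25 to 5.36 in the others, and that array also had the highest epithelial marker level. Srebf2 had 9.29 in replicate 2, against 7.60 to 7.85 in the others of that group. Fads1 had 6.3305 in replicate 1, against 7.72 to 7.94, and it was still above every tumour cell array. Fads2 had 5.5564 in replicate 5, against 6.70 to 7.15, and that array overlapped the 21-day tumour cells. In tumour cells, Msmo1 had 7.8326 in replicate 1 of the 21-day group, against 7.02 to 7.19, and Acss2 had 4.1627 in replicate 3 of the 7-day group, against 3.87 to 3.91. The 6 values came from 6 different arrays.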

How the results depend on the processing

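Under 34 other settings, 23 of which left out 1 array, 2863 values were recomputed. Of these, 2821 were counted as unchanged. For a single gene this means the same direction and side of the threshold. For a median difference it means a move smaller than the spread of array medians within groups, whatever its sign. For a number of genes that passed it means the same or a near count. Among the single-gene values, 41 kept direction but no longer passed, and 1 reversed. The reversed value was Acaca in tumour cells after 21 days, which was -0.0424 (limma, adjusted p = 0.960) with the other Acaca cluster, a setting chosen after seeing the data. The number of genes that passed stayed at 0 in every treatment comparison and both cell type contrasts of the effects, under every setting including the replicate block, which gave 0. Leaving out 1 array gave 9 to 12, 14 to 16 and 15 to 17 genes between the cell types in untreated, 7-day and 21-day tumours, and the replicate number shared by the cell types as a random block gave 11, 16 and 16, though the labels do not say that a number marks 1 tumour. The 41 values belong to 8 calls: Fads2, Elovl5 and Insig2 in untreated tumours, Cyp51, Acly and Scap after 7 days, and Scd2 and Mvd after 21 days. Scd2 lost its call with a macrophage covariate (adjusted p = 0.0623). The median difference of the 33 genes changed sign when 1 array was left out for endothelial cells after 7 days (-0.17 to 0.10), after 21 days (-0.08 to 0.10), for 21 against 7 days (-0.12 to 0.13), for endothelial against tumour cells after 7 days (-0.15 to 0.03), and for the cell type difference of the 21-day effect (-0.20 to 0.001). With arrays centred on their median, the median between the cell types was -0.28, -0.13 and -0.23 in untreated, 7-day and 21-day tumours. The spread of the endothelial arrays leaves wider intervals there than in tumour cells.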
